A study of Rattus norvegicus with 46 samples.

Results

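The genes described here are 9 rows of a rat count table of 32552 genes: 6 transcripts that rise with glucocorticoids in many tissues (Fkbp5, Tsc22d3, Sgk1, Klf9, Klf15 and Zbtb16), 2 metallothioneins (Mt1 and Mt2A) and Hsd11b1, the enzyme that makes active glucocorticoid inside cells. They were chosen by function with earlier results of these data known, and each symbol had a single row. They are described across vehicle, weight-matched and CagriSema rats in liver and in quadriceps.

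Glucocorticoids are adrenal steroids, corticosterone in the rat, that rise with stress and with food shortage. Inside a cell the hormone binds the glucocorticoid receptor, which leaves its chaperone complex, enters the nucleus and switches on genes with a response element. Fkbp5 encodes a co-chaperone that lowers the receptor's affinity for the hormone, so its induction works as negative feedback. Metallothioneins are small cysteine-rich proteins that bind zinc and copper; their genes respond to metals, through the zinc-sensing factor encoded by Mtf1, and also to glucocorticoids. In liver these steroids promote glucose production and in muscle they promote protein breakdown.

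The animals were wild-type DIO rats, and bulk RNA was sequenced from liver and from quadriceps, a thigh muscle. Vehicle rats were the controls, weight-matched rats were given restricted food to match the treated animals' weight, and CagriSema rats received the combination of cagrilintide, an amylin analogue, and semaglutide, a GLP-1 receptor agonist. The liver was taken after 20 days; the labels do not give the duration separately for muscle. In the order vehicle, weight-matched, CagriSema there were 8, 8 and 7 libraries of liver, and 7, 8 and 8 of quadriceps. The labels do not state sex, age, dose or time of day of collection. Nor do they tie a library to a rat, and p-values measure the spread between libraries, which may be technical.

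Total counts ran from 9888858 to 15948219 per liver library and from 11462369 to 16525274 per quadriceps library. Levels are given in CPM, the count of a gene scaled to a common library total within each tissue, as mean ± SD over libraries. Liver vehicle library 4 lay far from the others on the first principal component of all genes, with 1.87% of counts in ribosomal protein genes against 0.657% to 0.950% in the other 22 liver libraries. Liver vehicle library 6 held 9.29% mitochondrial counts against 4.09% to 5.81% in the others. These 2 and quadriceps vehicle libraries 2 and 5, which stood apart on the second component, are left out in an alternative fit named where it ends a call. Quadriceps vehicle library 8 held 22.8% mitochondrial counts against 10.96% to 18.96% in the other quadriceps libraries, and it was kept in that fit. In liver the 7 hepatocyte markers measured summed to between 101100 and 189400 CPM and the 7 muscle fibre markers to between 0.614 and 85.8 CPM. The muscle sum of 85.8 was in a vehicle liver (group median 1.49), and the highest in weight-matched and CagriSema livers were 1.72 and 1.40. In quadriceps the muscle markers summed to between 109600 and 208100 CPM and the hepatocyte markers to between 36.04 and 110 CPM. Each tissue therefore carried its own markers.

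Fkbp5 (ENSRNOG00000022523) was higher on average in both tissues of the weight-matched and the CagriSema rats than with vehicle. The difference in CagriSema quadriceps did not pass the threshold. In liver, vehicle libraries held 21.6 ± 3.84 CPM (SD, n = 8; lowest 16.5, median 20.8, highest 27.5). Weight-matched libraries held 36.7 ± 9.74 CPM (n = 8; 24.7, 33.8 and 52.1). CagriSema libraries held 41.1 ± 17.8 CPM (n = 7; 24.7, 33.2 and 72.9). Of the 8 weight-matched livers, 7 lay above the highest vehicle liver, and 5 of the 7 CagriSema livers did, so the groups overlapped by a few libraries. The spread was widest with CagriSema, where libraries 33 and 35 reached 57.8 and 72.9 CPM.

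The log2 fold change of Fkbp5 in liver was 0.77 ± 0.20 (SE) in weight-matched against vehicle (edgeR quasi-likelihood test, adjusted p = 0.0224) and 0.93 ± 0.21 in CagriSema against vehicle (edgeR adjusted p = 0.0484). The 2 comparisons share the vehicle libraries. CagriSema against weight-matched gave 0.16 ± 0.20, with a 95% interval from -0.24 to 0.56 (edgeR adjusted p = 0.915). Without vehicle libraries 4 and 6 the values against vehicle were 0.71 and 0.87 and neither passed (edgeR adjusted p = 0.0661 and 0.107). Leaving out single libraries kept the weight-matched call in 13 of 16 fits, losing it without vehicle library 6 or weight-matched library 25 or 26 (edgeR adjusted p up to 0.0533), and kept the CagriSema call in 1 of 15, the fit without vehicle library 7.

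In quadriceps, Fkbp5 stood at 19.9 ± 4.89 CPM with vehicle (n = 7; lowest 14.9, median 20.1, highest 27.4). Weight-matched libraries held 52.3 ± 24.7 CPM (n = 8; 25.3, 44.4 and 90.1), and 7 of 8 exceeded the highest vehicle library. CagriSema libraries held 35.9 ± 13.2 CPM (n = 8; 18.9, 34.4 and 60.0), and 6 of 8 exceeded it. The log2 fold change was 1.39 ± 0.28 in weight-matched against vehicle (edgeR adjusted p = 0.0171). With CagriSema it was 0.85 ± 0.28 and did not pass (edgeR adjusted p = 0.315), and CagriSema against weight-matched gave -0.54 ± 0.26 (95% interval -1.06 to -0.02, edgeR adjusted p = 0.660). The weight-matched call was lost without vehicle library 5 (edgeR adjusted p = 0.0517), without vehicle libraries 2 and 5 (1.33, adjusted p = 0.107) and in a fit of only these 2 groups (adjusted p = 0.0568).

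**Figure D1:**
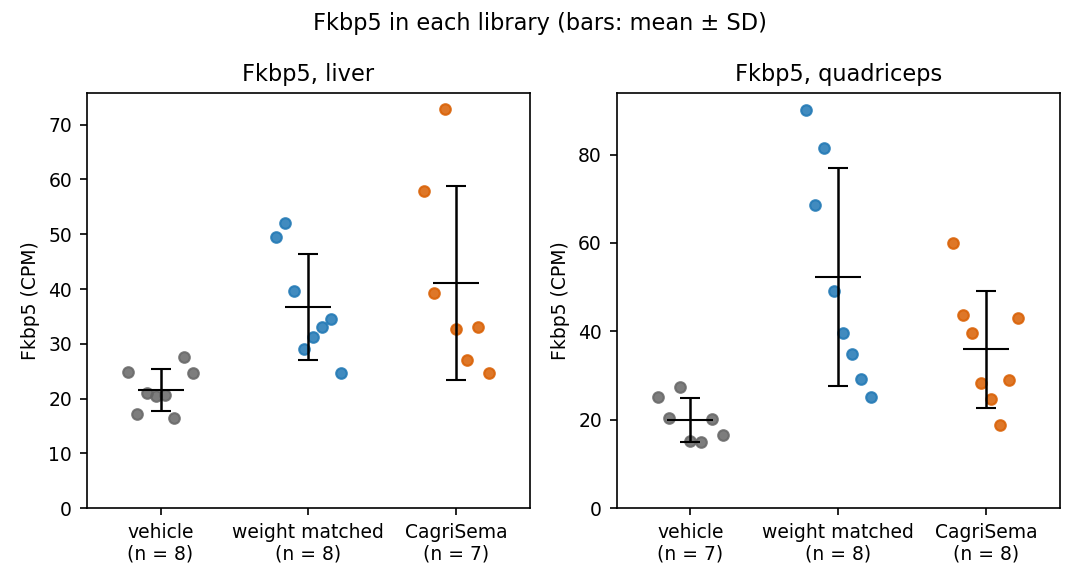
Fkbp5 in CPM (y axis) in each library (points) of the vehicle, weight-matched and CagriSema groups in liver (left) and quadriceps (right); black bars are the mean ± SD. In both tissues 7 of 8 weight-matched libraries lie above the highest vehicle library.

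Fkbp5 was thus the gene of this set that passed in more than 1 comparison. In liver, weight-matched against vehicle, 1 of the 9 genes passed, beside 7.02% of all 12702 genes tested (892 in either direction), which is close to the background. In liver, CagriSema against vehicle, 2 of 9 passed, Fkbp5 and Mt1, beside 0.354% of all genes (45 of 12702); the Mt1 difference was known when the set was drawn up, so nothing is read from this count. For CagriSema against weight-matched liver, edgeR called 0 of 9, beside 0.535% of all genes (68); 3 of the 9 had an unadjusted p under 0.05, and DESeq2 called 2, Mt1 and Mt2A, from which nothing is read either. In quadriceps 8 of the 9 could be tested, since Mt1 did not pass the filter on low counts. There 1 of 8 passed in weight-matched against vehicle, beside 2.29% of all genes (285 of 12471). An unadjusted p under 0.05 was reached by 6 of these 8, and DESeq2 called 2. Of the 8, 6 were above 0 and 2 below (median log2 fold 0.26). For CagriSema against vehicle edgeR called 0 of 8, beside 0.0321% (4 genes), with 2 at an unadjusted p under 0.05 and 0 by DESeq2. For CagriSema against weight-matched edgeR called 0 of 8, beside 0.128% (16 genes), with 2 at an unadjusted p under 0.05 and 0 by DESeq2. Of the 9 genes in weight-matched against vehicle liver, 4 had an unadjusted p under 0.05 and DESeq2 called 2. In CagriSema against vehicle liver 5 of the 9 did, the known Mt1 among them, and DESeq2 called 5. In liver, all genes with an unadjusted p under 0.05 numbered 3097 of 12702 in weight-matched and 2262 in CagriSema against vehicle. In CagriSema against weight-matched liver they numbered 1342. In quadriceps they numbered 2392 of 12471, 1287 and 954 in the same order.

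**Figure D2:**
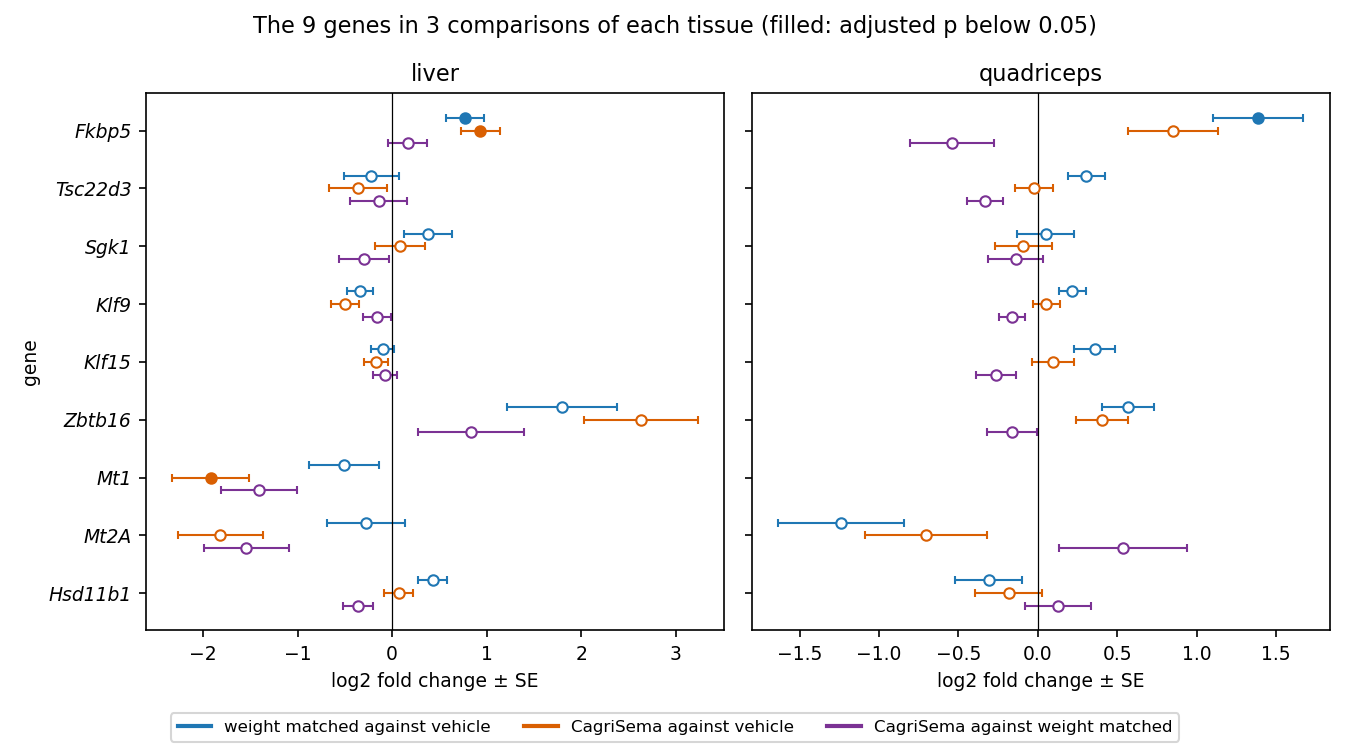
Log2 fold changes ± SE (x axis) of the 9 genes (y axis) in 3 comparisons of each tissue, liver left and quadriceps right, with separate x scales; filled points passed an adjusted p of 0.05 (the Mt1 difference was known beforehand) and Mt1 was not tested in quadriceps. Fkbp5 lies right of 0 against vehicle in both tissues, and the metallothioneins lie left of 0 in liver.

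Zbtb16 (ENSRNOG00000029980), a zinc finger transcription factor also called PLZF and a sensitive glucocorticoid target, had the largest ratio of its highest to its lowest library in CPM among the 9 genes in liver. Vehicle livers held 6.41 ± 4.63 CPM (n = 8; lowest 1.46, median 6.69, highest 14.1). Weight-matched livers held 22.4 ± 22.3 CPM (n = 8; 2.41, 16.0 and 74.8) and CagriSema livers 39.9 ± 31.01 CPM (n = 7; 9.49, 36.3 and 96.7). Above the highest vehicle liver lay 5 of 8 weight-matched and 6 of 7 CagriSema livers. The log2 fold changes against vehicle were 1.80 ± 0.58 and 2.64 ± 0.60, and both fell short of the threshold (edgeR adjusted p = 0.0609 and 0.0519). DESeq2 called both (adjusted p = 0.0262 and 0.00359). Without weight-matched library 26, the highest of its group, the weight-matched value was 1.22.

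In quadriceps Zbtb16 was at 35.5 ± 10.6 CPM with vehicle (n = 7; lowest 22.2, median 30.2, highest 50.1). Weight-matched quadriceps held 52.5 ± 10.9 CPM (n = 8; 41.4, 48.7 and 74.5) and CagriSema quadriceps 46.9 ± 9.11 CPM (n = 8; 34.1, 45.9 and 58.7). In each, 3 of 8 libraries lay above the highest vehicle library. The log2 fold changes were 0.57 ± 0.17 in weight-matched against vehicle (edgeR adjusted p = 0.0650; DESeq2 adjusted p = 0.0187) and 0.40 ± 0.17 in CagriSema against vehicle (edgeR adjusted p = 0.380).

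**Figure D3:**
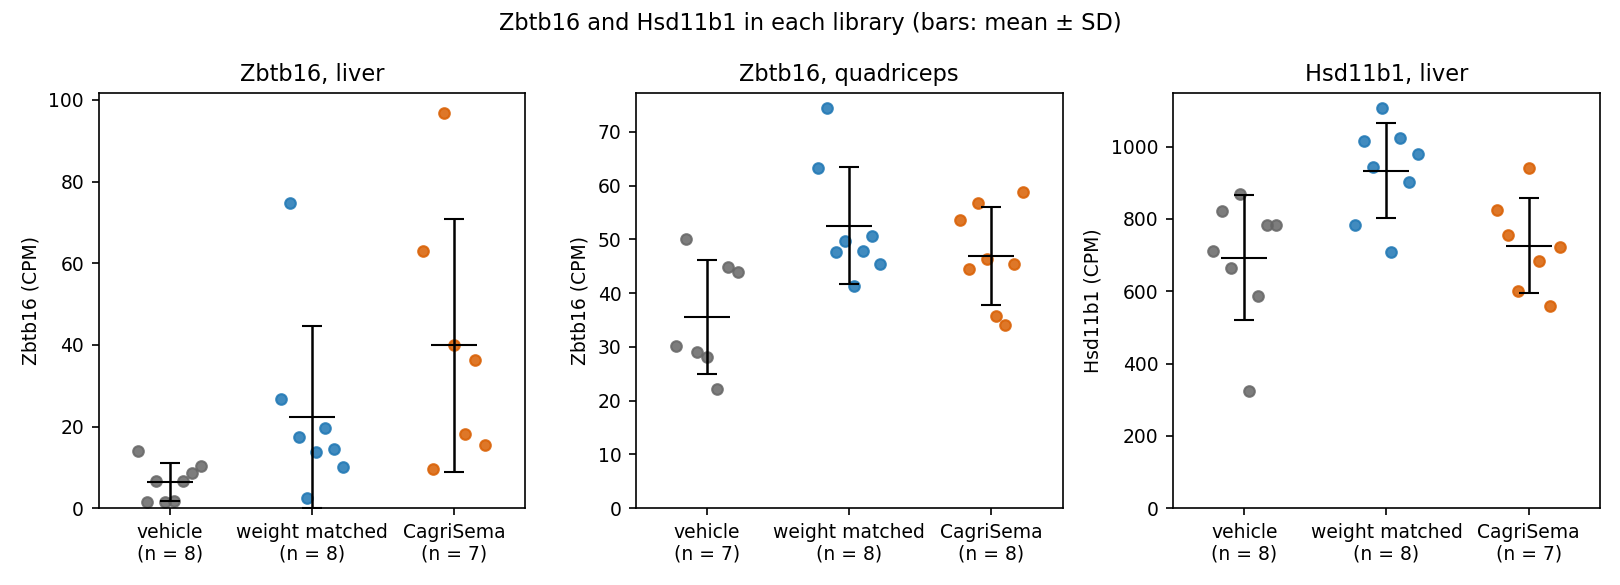
Zbtb16 in liver (left) and quadriceps (middle) and Hsd11b1 in liver (right), in CPM (y axis), in each library (points) of the 3 groups; black bars are the mean ± SD. Liver Zbtb16 spans 9.49 to 96.7 CPM within the CagriSema group, and 6 of 8 weight-matched livers lie above the highest vehicle liver for Hsd11b1.

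Tsc22d3 and Sgk1 did not pass in any comparison. Tsc22d3 (ENSRNOG00000056135) encodes GILZ, a leucine zipper protein that carries part of the anti-inflammatory action of the hormone. In liver it held 93.4 ± 79.4 CPM with vehicle (n = 8; median 64.6), 79.9 ± 23.6 in weight-matched (n = 8; median 80.1) and 72.3 ± 14.3 with CagriSema (n = 7; median 70.6). Vehicle library 4 alone stood at 286 CPM and the next vehicle library at 94.5. The sign of its liver differences depended on that library: weight-matched against vehicle was -0.22 ± 0.29 with it and 0.28 without, and CagriSema against vehicle -0.36 ± 0.31 with it and 0.14 without, and none of these passed. In quadriceps Tsc22d3 held 154 ± 30.2, 190 ± 32.7 and 151 ± 20.0 CPM in vehicle, weight-matched and CagriSema (n = 7, 8 and 8). Weight-matched against vehicle gave 0.31 ± 0.12 (edgeR adjusted p = 0.151) and CagriSema against weight-matched -0.33 ± 0.11 (95% interval -0.55 to -0.11), which did not pass and where 4 of 8 CagriSema libraries lay below the lowest weight-matched one.

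Sgk1 (ENSRNOG00000011815), a kinase that raises sodium transport, was at 25.5 ± 12.6, 33.1 ± 9.49 and 26.9 ± 11.2 CPM in vehicle, weight-matched and CagriSema liver (n = 8, 8 and 7). In quadriceps it was at 21.7 ± 7.02, 22.5 ± 5.45 and 20.4 ± 4.33 CPM (n = 7, 8 and 8). The ranges of all 3 groups overlapped in both tissues. In liver, 4 of 7 CagriSema libraries lay below the lowest weight-matched library. Its log2 fold changes against vehicle ran from -0.09 ± 0.18 (CagriSema quadriceps) to 0.38 ± 0.26 (weight-matched liver), with 95% intervals of -0.44 to 0.26 and -0.12 to 0.88. Without liver vehicle library 4, the highest of its group, weight-matched and CagriSema liver were at 0.61 and 0.31. Without quadriceps vehicle library 2, CagriSema quadriceps was at 0.06. None of these passed.

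The Krüppel-like factors Klf9 and Klf15 are transcription factors induced by the glucocorticoid receptor; Klf15 drives amino acid breakdown in muscle and liver. Klf9 (ENSRNOG00000014215) was lower on average in weight-matched and CagriSema liver than with vehicle, at 126 ± 28.8 CPM with vehicle (n = 8; lowest 70.8, median 127, highest 167), 99.7 ± 16.95 in weight-matched (n = 8; 66.8, 103 and 124) and 89.1 ± 15.2 with CagriSema (n = 7; 68.1, 90.4 and 111). All 3 ranges overlapped. The differences from vehicle were -0.34 ± 0.14 and -0.50 ± 0.15 and did not pass (edgeR adjusted p = 0.141 and 0.122). DESeq2 called the second (adjusted p = 0.0452). Without vehicle library 2, the lowest of its group, edgeR called both (-0.43 and -0.59, adjusted p = 0.0346 and 0.0420). Each was the 1 call in 16 and 15 fits that left out 1 library. Without vehicle library 6, the highest of its group, the values were -0.27 and -0.43. In quadriceps Klf9 held 142 ± 22.6, 164 ± 10.6 and 147 ± 16.4 CPM (n = 7, 8 and 8), with weight-matched against vehicle at 0.21 ± 0.08 (edgeR adjusted p = 0.160).

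Klf15 (ENSRNOG00000017808) held 160 ± 34.1, 149 ± 19.7 and 142 ± 22.7 CPM in vehicle, weight-matched and CagriSema liver (n = 8, 8 and 7) and 40.7 ± 10.2, 52.1 ± 5.93 and 43.5 ± 6.35 CPM in quadriceps (n = 7, 8 and 8). In weight-matched quadriceps 4 of 8 libraries exceeded the highest vehicle library, and the difference of 0.36 ± 0.13 did not pass (edgeR adjusted p = 0.133). In liver the interval of weight-matched against vehicle ran from -0.34 to 0.14 on the log2 scale.

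Hsd11b1 (ENSRNOG00000005861) encodes the enzyme that regenerates active corticosterone from its inert keto form. Its mean was 116 times as high in vehicle liver as in vehicle quadriceps, where levels in CPM come from separate scalings. Liver levels were 693 ± 174 CPM with vehicle (n = 8; lowest 325, median 747, highest 869), 933 ± 132 in weight-matched (n = 8; 709, 961 and 1108) and 726 ± 130 with CagriSema (n = 7; 559, 723 and 940). Of the weight-matched livers, 6 of 8 lay above the highest vehicle liver, against 1 of 7 CagriSema livers. The log2 differences were 0.43 ± 0.15 in weight-matched against vehicle (edgeR adjusted p = 0.0851), 0.07 ± 0.16 in CagriSema against vehicle (0.836) and -0.36 ± 0.16 in CagriSema against weight-matched (0.380), so none passed. Without vehicle library 4 the first was 0.48 and passed (edgeR adjusted p = 0.0442), the 1 call in 16 fits that left out 1 library. Without vehicle library 5, the lowest of its group, it was 0.32. Over these fits the edgeR adjusted p ran up to 0.154. In quadriceps Hsd11b1 held 5.96 ± 2.37, 4.81 ± 1.33 and 5.25 ± 1.30 CPM in the 3 groups (n = 7, 8 and 8).

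Of the genes that receive, fold or carry the hormone signal, 11 were measured. Serpina6, which encodes corticosteroid-binding globulin, the blood carrier that liver secretes, was the 1 of 11 that passed in weight-matched against vehicle liver, beside 7.02% of all genes, so the count is near the background. Vehicle livers held 463 ± 127 CPM of Serpina6 (n = 8; lowest 297, median 438, highest 696), weight-matched livers 251 ± 65.3 (n = 8; 116, 257 and 324) and CagriSema livers 291 ± 73.0 (n = 7; 216, 265 and 396). It fell by 0.89 ± 0.19 on the log2 scale in weight-matched liver (edgeR adjusted p = 0.00620), and the call held in 16 of 16 fits that left out 1 library. With CagriSema the difference from vehicle was -0.67 ± 0.19 and did not pass (edgeR adjusted p = 0.119). H6pd, which supplies the cofactor of the Hsd11b1 enzyme, was at 0.21 ± 0.10 in weight-matched and 0.09 ± 0.10 in CagriSema liver against vehicle. Nr3c2, the mineralocorticoid receptor, was at 0.47 ± 0.25 and 0.27 ± 0.26, and Hsd11b2, which inactivates corticosterone, at -0.31 ± 0.24 and -0.05 ± 0.25. None of these 3 passed in liver. In weight-matched against vehicle quadriceps edgeR called 0 of the 8 tested, beside 2.29% of all genes, and DESeq2 called 0. Of the 8, 0 had an unadjusted p under 0.05, beside 2392 of all 12471 genes. The glucocorticoid receptor gene Nr3c1 was not analysed here.

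Both metallothioneins stood lower on average in CagriSema liver than in vehicle liver, whereas Fkbp5 stood higher. Mt1 (ENSRNOG00000038047) held 62.5 ± 24.7 CPM with vehicle (n = 8; lowest 30.4, median 61.6, highest 93.6), 43.9 ± 29.9 in weight-matched (n = 8; 12.1, 36.8 and 111) and 16.6 ± 9.46 with CagriSema (n = 7; 4.41, 15.1 and 31.8). Of the 7 CagriSema livers, 6 lay below the lowest vehicle liver and 2 below the lowest weight-matched liver. The difference between CagriSema and vehicle, -1.92 ± 0.41 on the log2 scale, was known when the set was drawn up and is given as a description with no test.

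Mt2A (ENSRNOG00000043098), the second of the pair, held 40.2 ± 13.8 CPM with vehicle (n = 8; lowest 20.6, median 43.1, highest 58.8), 33.1 ± 25.01 in weight-matched (n = 8; 6.38, 28.2 and 90.8) and 11.4 ± 7.20 with CagriSema (n = 7; 2.67, 11.9 and 21.7). Again 6 of 7 CagriSema livers lay below the lowest vehicle liver. The log2 difference from vehicle was -1.82 ± 0.45. Against weight-matched liver, CagriSema liver was at -1.41 ± 0.40 for Mt1 and -1.54 ± 0.45 for Mt2A. These values rest on the same CagriSema libraries as the known Mt1 difference, and Mt2A varied with Mt1, so they too are a description. In CagriSema against vehicle liver the 7 hepatocyte markers were all below 0 as well, with a median log2 fold of -0.45. Their median was -0.62 in weight-matched against vehicle liver. In CagriSema against weight-matched liver it was 0.002, with 4 markers above 0 and 3 below. The part of the hepatocyte markers in the metallothionein differences was not tested. Weight-matched against vehicle was -0.51 ± 0.37 for Mt1 and -0.28 ± 0.41 for Mt2A, and neither passed (edgeR adjusted p = 0.403 and 0.701). Weight-matched library 28 was far above its group for both genes, at 111 and 90.8 CPM, and without it these values were -0.86 and -0.69, again not past the threshold.

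**Figure D4:**
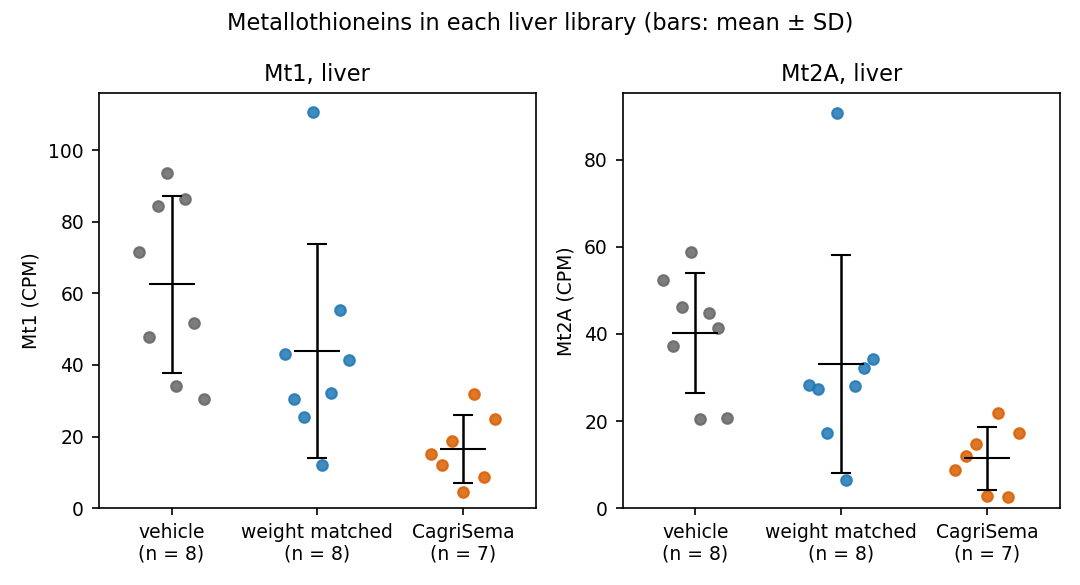
Mt1 (left) and Mt2A (right) in CPM (y axis) in each liver library (points) of the 3 groups; black bars are the mean ± SD. In both panels 6 of 7 CagriSema livers lie below the lowest vehicle liver, and 1 weight-matched liver lies far above its group.

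Both genes varied together from liver to liver. After the group means were removed, Pearson's r between Mt1 and Mt2A was 0.938 over 23 livers (permutation p = 1e-05, the smallest that 100000 permutations can give; adjusted p = 0.00021 over the 21 relations computed; Spearman's rho 0.897), and 0.902 without the 2 libraries farthest from the median of Mt1. Within groups r was 0.930 in vehicle, 0.970 in weight-matched and 0.920 in CagriSema. In quadriceps both genes were near the limit of detection, Mt1 at 0.0661 to 1.77 CPM (1 to 25 counts) and Mt2A at 0.366 to 3.74 CPM (5 to 55 counts). There Mt2A was at 1.77 ± 1.18, 0.754 ± 0.270 and 1.10 ± 0.639 CPM in vehicle, weight-matched and CagriSema (n = 7, 8 and 8), and weight-matched against vehicle gave -1.24 ± 0.40 (edgeR adjusted p = 0.0895). RefSeq lists pseudogenes of Mt1 in the rat, so reads may be shared between copies and Mt1 counts carry that uncertainty.

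The 2 genes are neighbours on chromosome 19, and the 250 bases before each start site are shown because the pair varied together and both hold the short metal response core at which MTF1 binds. The sequences are RefSeq's for build GRCr8, minus strand, 5′ to 3′; capitals mark each match to TGCACNC or TGCGCNC on either strand, where N is any base, overlapping matches included.
Mt1, chr19:10832976-10833225: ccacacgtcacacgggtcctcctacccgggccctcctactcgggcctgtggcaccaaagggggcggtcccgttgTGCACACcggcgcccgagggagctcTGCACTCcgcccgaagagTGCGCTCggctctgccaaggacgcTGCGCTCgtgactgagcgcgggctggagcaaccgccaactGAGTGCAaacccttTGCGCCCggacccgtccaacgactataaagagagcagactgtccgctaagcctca
Mt2A, chr19:10838709-10838958: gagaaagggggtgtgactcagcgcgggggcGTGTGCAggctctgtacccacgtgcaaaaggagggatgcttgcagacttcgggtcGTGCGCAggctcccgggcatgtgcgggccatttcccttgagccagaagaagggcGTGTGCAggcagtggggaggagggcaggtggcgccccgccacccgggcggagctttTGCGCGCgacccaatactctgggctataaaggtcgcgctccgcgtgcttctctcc
Mt1 held 6 matches and Mt2A 4. Of all 33469 promoter windows of this length in the RefSeq table, 20.6% held at least 1 match and 0.266% at least 4. Windows of 7 of the 9 genes were found, 11 in all, and none of the other 9 windows held the metal core. The short glucocorticoid response core AGAACA, searched on both strands, was in none of the 11 windows and in 17.5% of all windows; it says only that these letters are not in these bases.

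Of the other genes of zinc handling, 1 of 8 tested passed in weight-matched against vehicle liver, beside 7.02% of all genes. Slc39a8, a zinc importer, fell by 0.43 ± 0.09 on the log2 scale, from 69.9 ± 11.4 to 51.7 ± 5.84 CPM (edgeR adjusted p = 0.00498). Slc30a1, the zinc exporter that MTF1 also induces, was at 66.5 ± 17.3, 74.3 ± 7.15 and 83.3 ± 9.88 CPM in vehicle, weight-matched and CagriSema liver. Its difference between CagriSema and vehicle was 0.32 ± 0.15 and did not pass (edgeR adjusted p = 0.261). The metallothioneins had the opposite sign in that comparison, and a relation between them and Slc30a1 was not tested. In that comparison edgeR called 0 of the 8, beside 0.354% of all genes, and DESeq2 called 0. An unadjusted p under 0.05 was reached by 5 of the 8, beside 2262 of all 12702 genes. Of the 8, 6 were above 0 (median log2 fold 0.16). In CagriSema against weight-matched liver edgeR called 0 of 8, beside 0.535% of all genes, and DESeq2 called 0. An unadjusted p under 0.05 was reached by 2 of the 8, beside 1342 of all 12702 genes. All 8 were above 0 (median 0.18). Mtf1 itself had too few counts to be tested in either tissue, at 0.415 to 0.564 CPM on average in each of the 6 groups.

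Other glucocorticoid targets were read from 3 lists. In weight-matched against vehicle liver, 1 of 12 targets shared by many tissues was higher and 0 lower, beside 7.02% of all genes called, with 6 of 12 above 0 and a median log2 fold of 0.04 beside -0.01 over all genes tested. The gene was Per1, also a clock gene, at 0.68 ± 0.19 (edgeR adjusted p = 0.0319), a call kept in 8 of 16 fits without 1 library. The 10 liver targets had a median of -0.23, and the 2 that passed were Sds, serine dehydratase, at -1.77 ± 0.38 and Got1, an aspartate aminotransferase, at -1.12 ± 0.26. Both differences were among the earlier results and are given as a description, with nothing read from their count. In CagriSema against vehicle liver, edgeR called 0 of 12 shared targets, beside 0.354% of all genes, and DESeq2 called 0. An unadjusted p under 0.05 was reached by 3 of the 12, beside 2262 of all 12702 genes. Of the 12, 9 were below 0, with a median of -0.27 beside -0.02 over all genes. Of the 10 liver targets, Pck1, a gluconeogenic enzyme gene, passed at -0.75 ± 0.14, which was also known.

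In weight-matched against vehicle quadriceps, 1 of 9 muscle targets tested was higher and 1 lower, beside 2.29% of all genes called, with a median log2 fold of 0.29 beside -0.01 over all genes. An unadjusted p under 0.05 was reached by 6 of the 9, and DESeq2 called 3. Glul, glutamine synthetase, through which muscle exports nitrogen, rose by 0.79 ± 0.14 (edgeR adjusted p = 0.00975), from 953 ± 227 CPM with vehicle (n = 7; lowest 613, median 1026, highest 1270) to 1646 ± 388 (n = 8; 1232, 1591 and 2444). The call held in 15 of 15 fits without 1 library and was lost when only these 2 groups were fitted (adjusted p = 0.0568). Ampd3, AMP deaminase, was at -0.97 ± 0.26 (edgeR adjusted p = 0.0479), kept in 4 of 15 such fits. Of the 11 shared targets tested in quadriceps edgeR called 0 in that comparison, with 3 at an unadjusted p under 0.05 and 0 by DESeq2, and 6 were above 0. In CagriSema against vehicle quadriceps it called 0 of 11, with 1 at an unadjusted p under 0.05 and 0 by DESeq2, and 9 of 11 were below 0 (median -0.18). In CagriSema against weight-matched quadriceps it called 0 of 11, with 5 at an unadjusted p under 0.05 and 1 by DESeq2. There 10 of 11 were below 0 (median -0.24). Of all 12471 genes, 2.29%, 0.0321% and 0.128% were called in these quadriceps comparisons, taken in order. An unadjusted p under 0.05 was reached by 2392, 1287 and 954 of all genes. Of the 9 muscle targets edgeR called 0 in CagriSema against vehicle quadriceps, with 2 at an unadjusted p under 0.05 and 0 by DESeq2. Glul was at 0.42 ± 0.14 there (edgeR adjusted p = 0.321) and Ampd3 at -0.58 ± 0.25 (0.416). In CagriSema against weight-matched quadriceps edgeR called 0 of the 9, with 3 at an unadjusted p under 0.05 and 1 by DESeq2.

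Clock genes were listed because Per1 and Klf9 belong to both systems and the time of collection is not given. In weight-matched against vehicle liver 3 of 13 were higher and 1 lower, beside 7.02% of all genes called, and those with the lowest p were Cry1 at 0.86 ± 0.18 (edgeR adjusted p = 0.00498), Nr1d1 at -0.64 ± 0.17 (0.0219) and Per2 at 0.54 ± 0.14 (0.0223). In quadriceps 2 of 14 passed, beside 2.29% of all genes, Nr1d1 at -0.78 ± 0.17 (edgeR adjusted p = 0.0191) and Ciart at -0.66 ± 0.17 (0.0360). In CagriSema against vehicle liver edgeR called 0 of 13, beside 0.354% of all genes, with 5 at an unadjusted p under 0.05 and 1 by DESeq2. In quadriceps it called 0 of 14, beside 0.0321% of all genes, with 2 and 0. Over all genes, an unadjusted p under 0.05 was reached by 2262 of 12702 in liver and 1287 of 12471 in quadriceps. The part of the clock genes in the differences of Fkbp5 and the other genes was not tested.

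Differences between tissues were tested over all 46 libraries. That fit took the libraries as independent, because the labels do not tie a number to a rat. A fit with the title number as a block is given at the end. For weight-matched against vehicle edgeR called 0 of 9 genes, beside 2.76% of all 14110 genes (389), with 4 at an unadjusted p under 0.05 and 1 by DESeq2. For CagriSema against vehicle it called 0, beside 0.149% (21 genes), with 2 at an unadjusted p under 0.05 and 1 by DESeq2. For CagriSema against weight-matched it called 0, beside 0.0213% (3 genes), with 2 at an unadjusted p under 0.05 and 0 by DESeq2. These 2 were Fkbp5 and Mt2A. Liver minus quadriceps of Mt2A was -2.085 ± 0.69, with quadriceps levels near the limit of detection, and it is given as a description. Of all 14110 genes, 2630, 2117 and 1031 had an unadjusted p under 0.05 in the same order. The Fkbp5 difference was smaller in liver than in quadriceps by 0.61 ± 0.34 for weight matching (95% interval -1.28 to 0.05 for liver minus quadriceps, edgeR adjusted p = 0.333). For CagriSema against vehicle, liver minus quadriceps of Fkbp5 was 0.08 ± 0.35 (95% interval -0.59 to 0.76, edgeR adjusted p = 0.954). For CagriSema against weight-matched it was 0.70 ± 0.33 (95% interval 0.04 to 1.35) and did not pass (edgeR adjusted p = 0.670). In the fit with no block Klf9 came nearest, with liver minus quadriceps at -0.55 ± 0.17 for weight matching (edgeR adjusted p = 0.0640, DESeq2 adjusted p = 0.0271). Zbtb16 was at 2.23 ± 0.61 for CagriSema against vehicle (edgeR adjusted p = 0.103; DESeq2 adjusted p = 0.0416).

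Within groups, the r of Fkbp5 with Zbtb16 in liver was 0.675 (n = 23, permutation p = 0.00037, adjusted 0.00389; rho 0.674) and 0.611 without the 2 libraries farthest from the median, while with Tsc22d3, Klf9 and Mt1 the r of Fkbp5 was 0.157, 0.081 and -0.126, and none of these passed. In quadriceps r was 0.502 with Klf9 (permutation p adjusted over 21 relations 0.0241), 0.494 with Tsc22d3 (0.0407; by rho 0.0623) and 0.485 with Zbtb16 (0.0361), and it was 0.451, 0.448 and 0.444 without the 2 farthest libraries. Without vehicle libraries 2 and 5 the relations of Fkbp5 with Tsc22d3 (r = 0.482, permutation p adjusted 0.0923) and Zbtb16 (0.504, 0.0516) no longer passed, and that with Klf9 did (0.574, 0.0363). Klf9 and Klf15 were related in quadriceps (r = 0.6253, permutation p adjusted 0.0332) and not in liver (r = -0.033). Without the same 2 vehicle libraries that r was 0.318 and no longer passed (permutation p adjusted 0.352), so it rests on them.

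Liver and quadriceps libraries that share a title number and treatment could be set side by side for 22 numbers. The labels do not say that a number marks a rat. For Tsc22d3 the within-group r between tissues was 0.719 (permutation p adjusted 0.00476), for Klf15 0.595 (0.0372) and for Fkbp5 0.592 (0.0311). Without the 2 farthest libraries these were 0.597, 0.476 and 0.599. For Sgk1 r was 0.470 (permutation p adjusted 0.0842), for Klf9 0.436 (0.141) and for Zbtb16 0.322 (0.270), none past the threshold. Mt1, Mt2A and Hsd11b1 gave -0.096, 0.004 and -0.301.

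**Figure D5:**
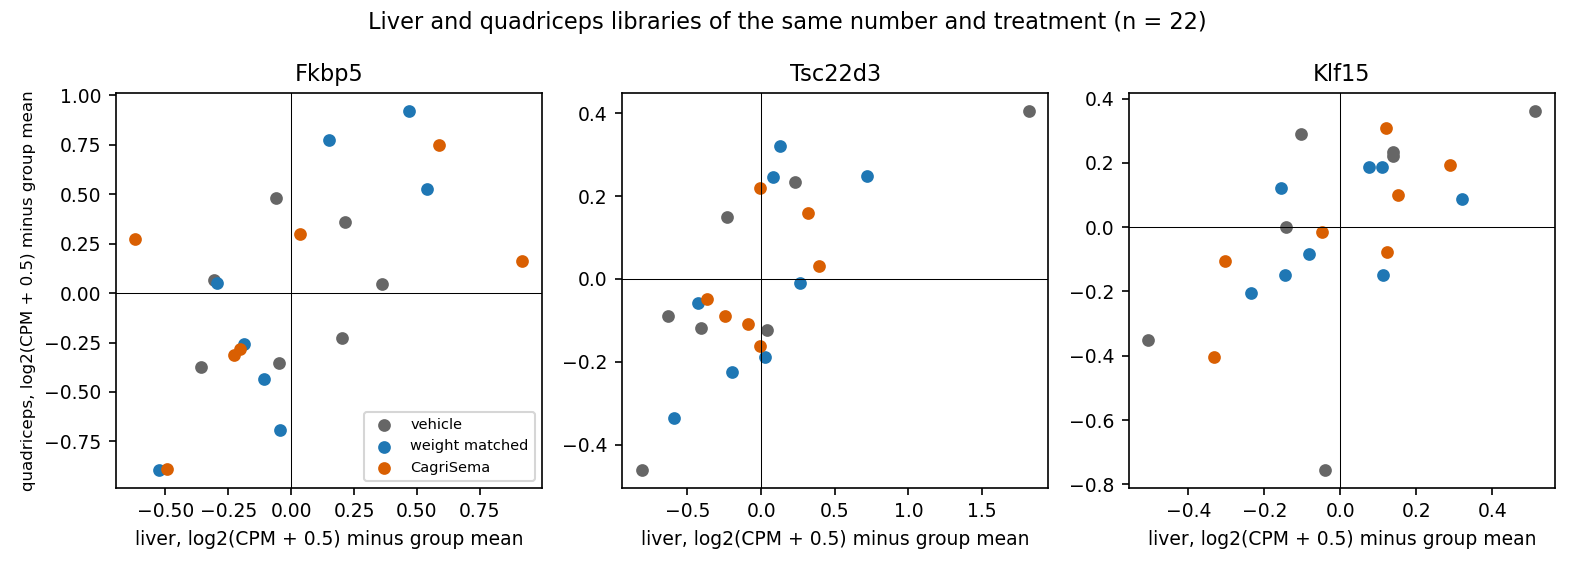
Fkbp5, Tsc22d3 and Klf15 in liver (x axis) and in quadriceps (y axis) libraries of the same number and treatment, as log2(CPM + 0.5) minus the group mean; each point is 1 of 22 numbers, coloured by treatment. Points high in liver tend to be high in quadriceps, with r of 0.592, 0.719 and 0.595.

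Over all 23 libraries of a tissue, the genes whose log2 CPM tracked Fkbp5 most closely in liver were Edem1 (r = 0.860), Wasl (0.843) and Tctn1 (0.816). In quadriceps they were Ankrd9 (r = 0.862), Glul (0.841) and Arhgap12 (0.830). The closest to Mt1 in liver were AC128848.1, a locus with no gene name (0.959), Eif4a2 (0.795) and Rsrp1 (0.774). Whether reads are shared between Mt1 and AC128848.1 was not tested. These r values include the group differences and share library and depth, and they are given as a description.

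Markers of other cells differed between groups in places. In bulk tissue, fewer cells of a type and less RNA per cell cannot be told apart. In weight-matched against vehicle liver both erythroid markers tested were lower, beside 7.02% of all genes called. The erythroid sum ran from 45.7 to 336 CPM in vehicle, 18.0 to 52.0 in weight-matched and 47.5 to 70.5 in CagriSema livers. Of 7 hepatocyte markers 2 were lower in weight-matched and 1 in CagriSema liver, beside 7.02% and 0.354% of all genes called. Hepatocyte sums were 114400 to 189400 CPM in vehicle, 105300 to 132700 in weight-matched and 101100 to 126200 in CagriSema. All 7 hepatocyte markers were below 0 in both comparisons, with medians of -0.62 and -0.45 on the log2 scale. An unadjusted p under 0.05 was reached by 6 and 7 of them, beside 3097 and 2262 of all 12702 genes. Of 4 fibroblast or stellate markers 1 was higher in each of these 2 comparisons, beside the same 7.02% and 0.354% of all genes. These markers summed to 28.3 to 41.5, 34.2 to 66.4 and 41.6 to 70.0 CPM, with Col1a2 listed at 0. Of 7 macrophage markers edgeR called 0 in liver against vehicle in either group, with 0 at an unadjusted p under 0.05 and 0 by DESeq2. In quadriceps 1 of 4 fibroblast markers was lower in weight-matched against vehicle, beside 2.29% of all genes called. Fkbp5 and Glul passed in the same comparison. There 6 of 7 muscle fibre markers were above 0 (median 0.34), and edgeR called 0 and DESeq2 4. An unadjusted p under 0.05 was reached by 6 of the 7, beside 2392 of all 12471 genes. Muscle fibre sums ran from 109600 to 165500 CPM in vehicle and 144800 to 208100 in weight-matched libraries. The part of these shifts in the differences of the 9 genes was not tested.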

How the data were processed

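The deposited table holds counts per gene, whole numbers, which the authors made after read trimming with fastp 0.23.1 and alignment with STAR 2.5.2b, per the submitters' processing notes; the extraction used the RNeasy Minikit and the library the Twist UMI system, per the labels' protocols. Which build, annotation and counter were used, and how the molecular identifiers entered, is not given in the sources used here. In the table, 1 count column matched no library and was not used.

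Counts were fitted in R 4.3.3 with edgeR 4.0.16 (TMM scaling, filterByExpr by group, robust quasi-likelihood test), 23 libraries of 3 groups per tissue, and all 46 in 6 groups for differences between tissues. P-values were adjusted over all genes tested (Benjamini-Hochberg), with a threshold of 0.05; fold changes are log2 with SE, and 95% intervals are 1.96 SE. Correlations used log2(CPM + 0.5) minus group means and 100000 permutations within groups, two-sided. DESeq2 1.42.0, RLE scaling, no filter, other sets of libraries and a block on the title number were alternatives. The fits were tested on simulated data.

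The 9 genes and the other lists were chosen with earlier results of these data known. Named are all 9; from each other list at most 3 genes per comparison that passed, with the lowest p; Nr3c2, H6pd, Hsd11b2, Serpina6, Mtf1 and Slc30a1 always; and the 3 genes closest to Fkbp5 and Mt1 (at least 1 CPM). Of the list genes, 2 were matched by an older symbol and 7 were not analysed here.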

Additional observations from a re-analysis of the deposited data

Results flagged for a closer look

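Of 54 sets of libraries (9 genes, 3 groups, 2 tissues), 5 had 1 library far from the rest by Dixon's criterion; chance flags about 1 in 20 sets. Tsc22d3 was at 286 CPM in liver vehicle library 4, against at most 94.5 in the other 7 vehicle livers. That library stood apart over all genes, and the Tsc22d3 differences without it are given in the text above. Zbtb16 was at 74.8 CPM in liver weight-matched library 26, where the next library held 26.7, and Fkbp5 was also highest of its group there, at 52.1 CPM. Mt1 and Mt2A were at 111 and 90.8 CPM in liver weight-matched library 28, where the next libraries held 55.4 and 34.4, and Hsd11b1 and Sgk1 were also highest of their group in that library (1108 and 47.7 CPM). Sgk1 was at 35.2 CPM in quadriceps vehicle library 2, against at most 22.97 in the other 6. The causes were not tested.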

How the results depend on the processing

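Over 2027 recomputed values of the 9 genes, 1969 kept their side of the threshold, 38 lost a call, 20 gained one, 0 reversed a called direction and 48 changed sign with neither value called. Genes of the set called in liver, weight-matched against vehicle (1), became 2 with DESeq2 and 0 without vehicle libraries 4 and 6; in liver, CagriSema against vehicle (2), 5 with DESeq2 and 0 with no filter, with only the 2 groups or without vehicle libraries 4 and 6; in liver, CagriSema against weight-matched (0), 2 with DESeq2; in quadriceps, weight-matched against vehicle (1), 2 with DESeq2 and 0 with only the 2 groups or without vehicle libraries 2 and 5. Leaving out 1 library gave 0 to 2, 0 to 3 and 0 to 2 in the comparisons of liver weight-matched, liver CagriSema and quadriceps weight-matched with vehicle, and at most 1 in the tissue difference for weight matching.

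All genes called in liver were, for weight-matched against vehicle (892), 1351 with DESeq2, 414 with only the 2 groups and 532 (without vehicle library 6) to 1207 (without vehicle library 7) in leave-one-out fits; for CagriSema against vehicle (45), 289 with DESeq2, 13 with no filter, 4 with only the 2 groups, 18 without libraries 4 and 6 and 3 (without vehicle library 8) to 130 (without vehicle library 7); for CagriSema against weight-matched (68), 221, 45, 603, 590 and 27 to 68 in the same order. In quadriceps they were, for weight-matched against vehicle (285), 698 with DESeq2, 131 with no filter, 7 with only the 2 groups, 19 without libraries 2 and 5 and 46 (without vehicle library 5) to 645 (without vehicle library 1); for CagriSema against vehicle (4), 36 with DESeq2, 2 with only the 2 groups, 0 without libraries 2 and 5 and 0 to 7; for CagriSema against weight-matched (16), 34 with DESeq2, 7 with no filter and 2 to 17. The causes were not tested.

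Tissue differences over all genes were, for weight-matched against vehicle (389), 801 with DESeq2, 224 with no filter, 190 without the 4 libraries set apart and 238 to 664 in leave-one-out fits; for CagriSema against vehicle (21), 193, 13, 9 and 11 to 53; for CagriSema against weight-matched (3), 58, 0, 140 and 0 to 8. In the set, DESeq2 called 1 gene for weight-matched and 1 for CagriSema against vehicle.

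The title number as a replicate block gave 10 genes for CagriSema against vehicle and 0 for CagriSema against weight-matched (1 in the same libraries with no replicate block, an alternative chosen after seeing the data), and called 1 of the 9 genes for weight matching, Klf15 at -0.50 ± 0.13 (edgeR adjusted p = 0.0487). Over 22 same-numbered pairs and 11131 genes, deviations from group means correlated at a median of 0.094 (-0.008 to 0.253), against -0.018 for other numbers, and 19 of 22 libraries correlated best with their own number, a hint from the data and not the design.

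Correlations in quadriceps without vehicle libraries 2 and 5 no longer passed for Fkbp5 with Tsc22d3 (0.482) and Zbtb16 (0.504), Klf9 with Klf15 (0.318) and Mt1 with Mt2A (0.503). Depth limits the metallothioneins in quadriceps.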
